A study of Arabidopsis thaliana with 2 samples.

Results

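The regulators described here are 10 Arabidopsis thaliana genes whose products control seed filling and embryo maturation: LEC1, LEC2, FUS3, ABI3, L1L, WRI1, ABI4, ABI5, EEL and AGL15. They were picked by gene identifier from the 33602 gene models listed in each of 2 deposited expression tables, and all 10 were listed in both. One table came from developing seeds of plants carrying the soybean phytosulfokine precursor gene GmPSKγ1, and the other from plants with the control construct GmPSKγ1tc. Both constructs are labelled with the promoter OLEOp, both tissues as developing seed and both ages as 10 DAP. RNA of 3 individual lines was pooled for each genotype before sequencing, so each genotype is 1 library, the spread between lines is not in the data, and no test between genotypes can be made. Every difference below is a difference between these 2 libraries.

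LEC1, LEC2, FUS3 and ABI3 form the core network of seed maturation in Arabidopsis. LEC1 and its closest relative L1L (NF-YB6) are B subunits of nuclear factor Y, a complex of A, B and C subunits that binds CCAAT sequences. LEC2, FUS3 and ABI3 carry a B3 DNA-binding domain and bind the RY element of storage protein and oleosin genes. ABI5 and EEL are bZIP factors that bind G-box-like abscisic acid response elements, ABI4 and WRI1 belong to the AP2/ERF superfamily, and AGL15 is a MADS-domain factor that accumulates in embryos.

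The binding sequences of the B3 factors, the bZIP factors and WRI1 are shown first. CCAAT sequences and other sites were not searched. The 250 bases before the gene start were read from the TAIR10.1 genome at the gene starts annotated by RefSeq for 26711 protein-coding gene models, and searched on both strands for the RY core CATGCA, the G-box CACGTG and the AW-box of WRI1 (CNTNG, then 7 bases of any kind, then CG). An RY core was found in 8.51% of these windows, a G-box in 6.58% and an AW-box in 9.18%. Matches may overlap each other, and a match is a run of letters in the reference, not a measured binding site. Among the 10 regulators themselves, FUS3 and AGL15 had an RY core, ABI5 had G-boxes and LEC1 had an AW-box. The stretches below carry them, with the matched letters in capitals, 5′ to 3′ on the strand of the gene.
FUS3 (chr3:9856213-9856257, minus strand): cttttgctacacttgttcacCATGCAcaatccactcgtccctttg
AGL15 (chr5:4450986-4451031, minus strand): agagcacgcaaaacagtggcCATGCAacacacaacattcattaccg
ABI5 (chr2:15207700-15207745, minus strand): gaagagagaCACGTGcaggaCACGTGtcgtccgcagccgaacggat
LEC1 (chr1:7729678-7729731, minus strand): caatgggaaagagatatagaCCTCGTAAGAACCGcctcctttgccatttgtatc
ABI5 had 3 G-boxes in its window, of which 2 lie in this stretch, and AGL15 had 2 RY cores, of which 1 is shown.

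In storage protein and oil body genes, textbook targets of the B3 regulators, an RY core stood in 16 of 17 windows and a G-box in 7. CRB was the exception without an RY core. The 5 storage albumin genes SESA1 to SESA5 are shown because each has an RY core just downstream of a G-box, and SESA1 to SESA4 have another just upstream of it.
SESA1 (chr4:13607244-13607289, plus strand): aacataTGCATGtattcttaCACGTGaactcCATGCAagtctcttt
SESA2 (chr4:13609256-13609301, plus strand): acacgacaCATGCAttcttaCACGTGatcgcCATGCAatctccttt
SESA3 (chr4:13611709-13611754, plus strand): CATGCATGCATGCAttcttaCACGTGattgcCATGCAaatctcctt
SESA4 (chr4:13613509-13613554, plus strand): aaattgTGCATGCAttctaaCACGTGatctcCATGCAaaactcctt
SESA5 (chr5:22239230-22239275, minus strand): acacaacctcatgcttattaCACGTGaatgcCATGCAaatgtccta
The late embryogenesis genes had the opposite balance, with a G-box in 9 of 15 windows and an RY core in 3. RAB18, at least 1.5-fold higher in GmPSKγ1, had no G-box, while PER1, lower in GmPSKγ1, and EM6, listed at 0 in both libraries, had. A link between G-boxes and ratios was not tested. The windows of LEA4-5 and AT3G17520 are shown because these genes had the highest ratios of that list.
LEA4-5 (chr5:2090532-2090577, minus strand): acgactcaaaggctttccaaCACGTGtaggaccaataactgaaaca
AT3G17520 (chr3:6000576-6000621, minus strand): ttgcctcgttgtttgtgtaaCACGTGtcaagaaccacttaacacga
The plastid glycolysis and fatty acid synthesis genes, targets of WRI1, had an RY core in 0 of 24 windows, a G-box in 3 and an AW-box in 2. That AW-box share of 8.33% is near the 9.18% of all windows. The window ends at the gene start, so bases between the gene start and the start codon were not searched.

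**Figure D1:**
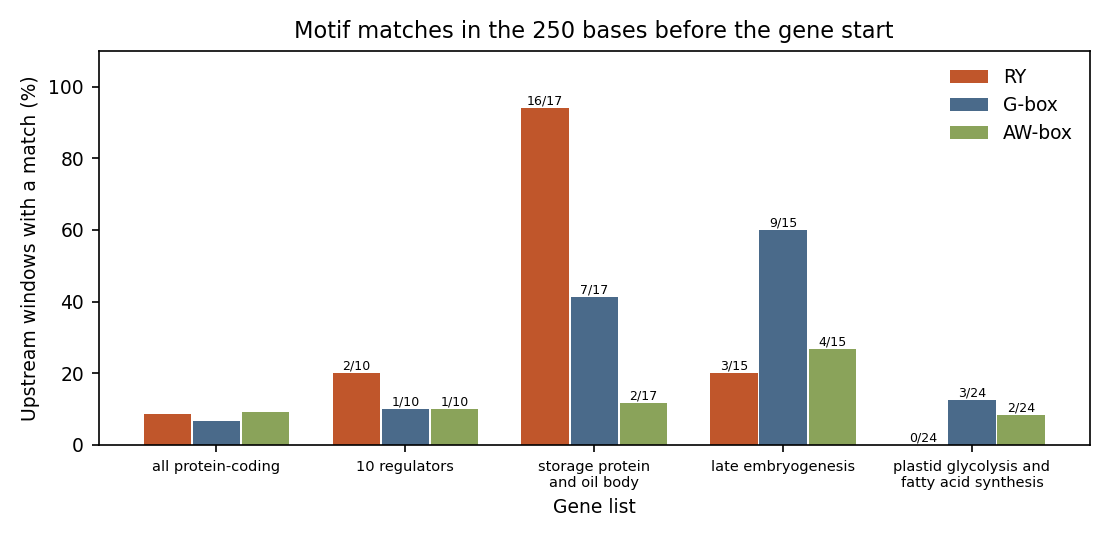
Share of upstream windows (250 bases before the RefSeq gene start, in percent) with at least 1 match to the RY core, the G-box or the AW-box, for all protein-coding gene models, the 10 regulators and 3 lists of targets. Labels give the number of windows with a match over the number searched; RY cores stand in 16 of 17 storage protein and oil body windows against 8.51% of all windows.

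The level of a gene is its deposited FPKM, a count of reads or fragments corrected for the length of the gene model and the size of the library. Their smallest steps corresponded to libraries scaled to about 16.4 M (mega) reads for GmPSKγ1 and 15.3 M for the control. Differences are given as the log2 ratio of GmPSKγ1 over control after adding 1 FPKM, or as the plain FPKM ratio with an exact 95% interval from approximate read counts. Counting error is all that the interval covers; plants, lines and library preparations vary beyond it. It is given only for gene models that overlap no other. Some markers of each seed compartment were present in both libraries. Summed over each list, embryo markers had 600 FPKM in GmPSKγ1 and 669 in the control. Endosperm markers had 3667 and 4288 FPKM, and seed coat markers 994 and 1034. Single genes carried most of these sums: without EPR1 the endosperm list had 27.2 and 26.9 FPKM, without PDF1 the embryo list had 58.3 and 62.4, and without TT10 the seed coat list had 397 and 351. Of 8 endosperm markers, 4 averaged less than 1 FPKM: FIS2, PHE1, and IKU2 and MINI3, which were listed at 0 in both libraries. WOX2 and DRNL of 7 embryo markers and TT12 of 9 seed coat markers also averaged less than 1 FPKM. Of 4 silique wall markers, FUL and IND were below 0.5 FPKM in both, while SHP2 (105 and 121 FPKM) and SHP1 (14.7 and 12.2 FPKM), known also from ovules and seeds, made up nearly all of the list's 120 and 133 FPKM. In such whole-seed RNA, fewer cells of a type and less RNA per cell cannot be told apart.

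The 10 regulators spanned a wide range of levels, and the range was much wider than any difference between the libraries. FUS3 was the most abundant, at 249 FPKM in GmPSKγ1 and 235 in the control, the 309th and 295th highest of all models. L1L, AGL15, WRI1, ABI3 and EEL followed between 92.0 and 176 FPKM, then LEC1 and ABI4 between 15.2 and 19.2 FPKM. ABI5 and LEC2 were lowest, between 3.37 and 5.71 FPKM. Of the 10 genes, 6 held the same place in the order in both libraries. WRI1 and ABI3 exchanged places, as did LEC1 and ABI4. These pairs lay close together: ABI3 stood at 0.926 times WRI1 in GmPSKγ1 and 1.09 times in the control, and LEC1 at 1.02 and 0.836 times ABI4. Together the 10 genes summed to 938 FPKM in GmPSKγ1, 0.136% of the library's total, and to 834 in the control, 0.121% of its total.

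**Figure D2:**
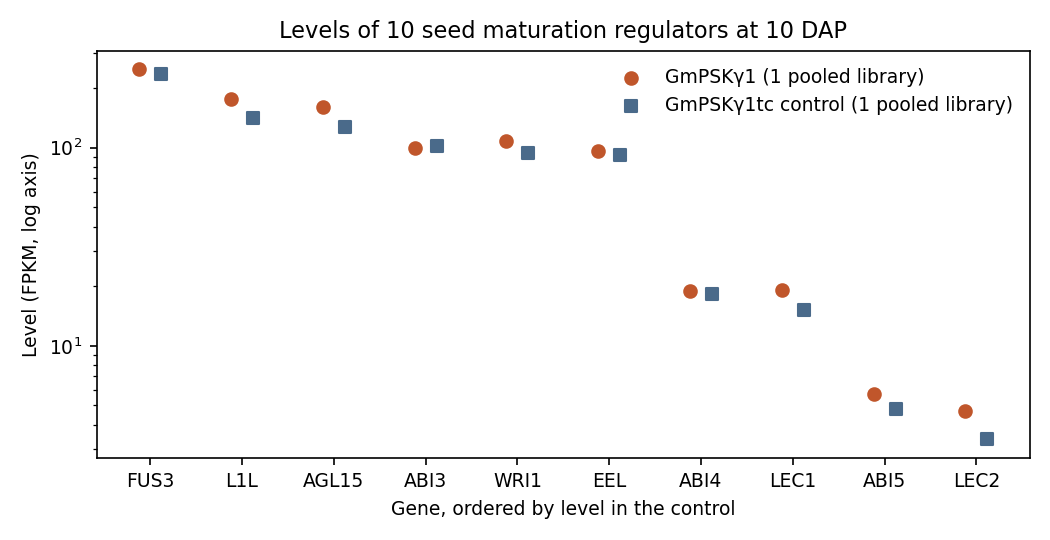
FPKM (log axis) of each regulator in the GmPSKγ1 library (circles) and the GmPSKγ1tc control library (squares), 1 pooled library each, ordered by the control. FUS3 lies at 249 and 235 FPKM and LEC2 at 4.68 and 3.37 FPKM.

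Of the 10 regulators, 9 were higher in GmPSKγ1, where 57.9% of the 17816 gene models with a mean of at least 1 FPKM were higher, and 58.8% of the 13926 models within the range of levels that the regulators span. The differences were small: log2 ratios ran from -0.03 to 0.38 with a median of 0.21, against a median of 0.05 and quartiles of -0.11 and 0.21 over all models. None of the regulators was 1.5-fold apart, as were 5.81% of all models, and none was 2-fold apart, as were 1.23%. Of the 9 with a model that overlaps no other, the counting interval lay above 1 for 5, as it did for 24.9% of such models and for 27.3% of those in the regulators' range of levels, and included 1 for 4. With the median ratio over all models set to 1, or with the libraries scaled on the genes other than the 50 most abundant, 3 intervals lay above 1 (LEC1, WRI1 and AGL15), those of FUS3 and LEC2 included 1, and that of ABI3 lay below 1. Of all such models, 19.5% and 16.8% then lay above 1, and 20.9% and 24.0% lay below 1. When the libraries were rescaled without the 50 most abundant genes, 6 of 10 regulators were higher, beside 45.7% of all models, and FUS3, ABI4 and EEL then had log2 ratios just below 0.

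**Figure D3:**
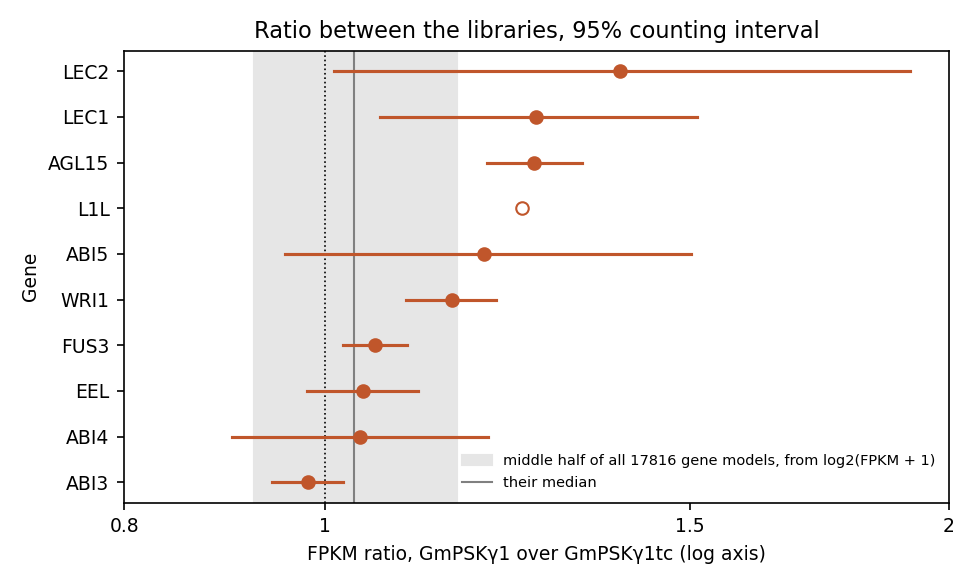
FPKM ratio of GmPSKγ1 over control for each regulator (log axis), with the exact 95% counting interval; the open circle is L1L, whose model overlaps another. The grey band runs from the lower to the upper quartile over all models (log2 ratios -0.11 to 0.21); the ratios of LEC2, LEC1, AGL15 and L1L lie to its right, that of ABI5 (1.19) just past its edge, and only ABI3 (0.981) lies below 1.

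The NF-Y type regulators were both higher in GmPSKγ1, by similar ratios. LEC1 (AT1G21970; TAIR10 chromosome 1, 7727577 to 7729617) had 19.2 FPKM in GmPSKγ1 and 15.2 in the control, on about 305 and 225 reads. Its ratio was 1.26, with a counting interval of 1.06 to 1.51. L1L (AT5G47670; chromosome 5, 19315023 to 19316169) had 176 and 142 FPKM, a ratio of 1.24. Its model shares 38 bases with that of AT5G47680, which had 15.5 and 14.4 FPKM. L1L stood 9.17-fold above LEC1 per length in GmPSKγ1 and 9.31-fold in the control, so the relation between the relatives was nearly the same in both libraries. L1L alone made up 66.0% and 61.7% of the FPKM of the 10 NF-YB genes examined.

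The B3 regulators differed from each other far more than between libraries. FUS3 (AT3G26790; chromosome 3, 9853828 to 9855989), which also acts in abscisic acid and gibberellin balance, was nearly level between the libraries, with a ratio of 1.06 (interval 1.02 to 1.10) on about 6536 and 5776 reads. ABI3 (AT3G24650; chromosome 3, 8997370 to 9001063), the B3 factor that mediates abscisic acid responses in seeds, had 99.9 and 102 FPKM, a ratio of 0.981 with an interval of 0.943 to 1.02. ABI3 was the 1 regulator that was lower in GmPSKγ1, within its counting error at the deposited scaling. LEC2 (AT1G28300; chromosome 1, 9896867 to 9899876), able to induce embryo formation in vegetative tissue when expressed there, had 4.68 and 3.37 FPKM. That is a ratio of 1.39, the highest of the 10, but it rests on 101 and 68 reads and its interval ran from 1.01 to 1.92. With a pseudocount of 5 FPKM its log2 ratio was 0.21, below those of AGL15 (0.32), L1L (0.31) and LEC1 (0.26). FUS3 was 2.49-fold above ABI3 in GmPSKγ1 and 2.31-fold in the control, and 53.2-fold and 69.8-fold above LEC2. FUS3 thus held 70.4% and 69.1% of the summed FPKM of these 3 genes.

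The abscisic acid and sugar response regulators had counting intervals that included 1. That of ABI4 is too narrow, because its RefSeq exon of 1339 bases is longer than the deposited model of 987 bases. ABI4 (AT2G40220; chromosome 2, 16796599 to 16797585), whose mutants are insensitive to abscisic acid and to sugar, had 18.9 FPKM in GmPSKγ1 and 18.2 in the control, a ratio of 1.04 (interval 0.902 to 1.20). ABI5 (AT2G36270; chromosome 2, 15204764 to 15207528), which acts late in maturation and in germination arrest, had 5.71 and 4.78 FPKM, on about 182 and 142 reads. Its ratio was 1.19, with an interval of 0.956 to 1.5. EEL (AT2G41070; chromosome 2, 17130774 to 17132386), known to compete with ABI5 at the EM1 promoter, had 95.9 and 92.0 FPKM, a ratio of 1.04 (interval 0.981 to 1.11). Per length EEL stood 16.8-fold above ABI5 in GmPSKγ1 and 19.2-fold in the control.

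WRI1, the activator of plastid glycolysis and fatty acid synthesis, and AGL15 were higher in GmPSKγ1 beyond counting error. WRI1 (AT3G54320; chromosome 3, 20114684 to 20118639) had 108 FPKM in GmPSKγ1 and 93.7 in the control, a ratio of 1.15 with an interval of 1.09 to 1.21. AGL15 (AT5G13790; chromosome 5, 4449014 to 4450843) had 161 and 128 FPKM, a ratio of 1.26 with an interval of 1.20 to 1.33. AGL18, a MADS gene that acts redundantly with AGL15, was lower in GmPSKγ1, with 24.5 and 31.6 FPKM and a ratio of 0.775 (interval 0.698 to 0.859). WRI3, a relative of WRI1, had 6.51 and 6.74 FPKM.

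The regulators were then set beside their partners, opponents and targets, in 10 lists of genes taken from general knowledge. These lists have no test, and each is read against the 57.9% of models that were higher and the median of 0.05. Genes averaging less than 1 FPKM over both libraries are not in the counts.

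**Figure D4:**
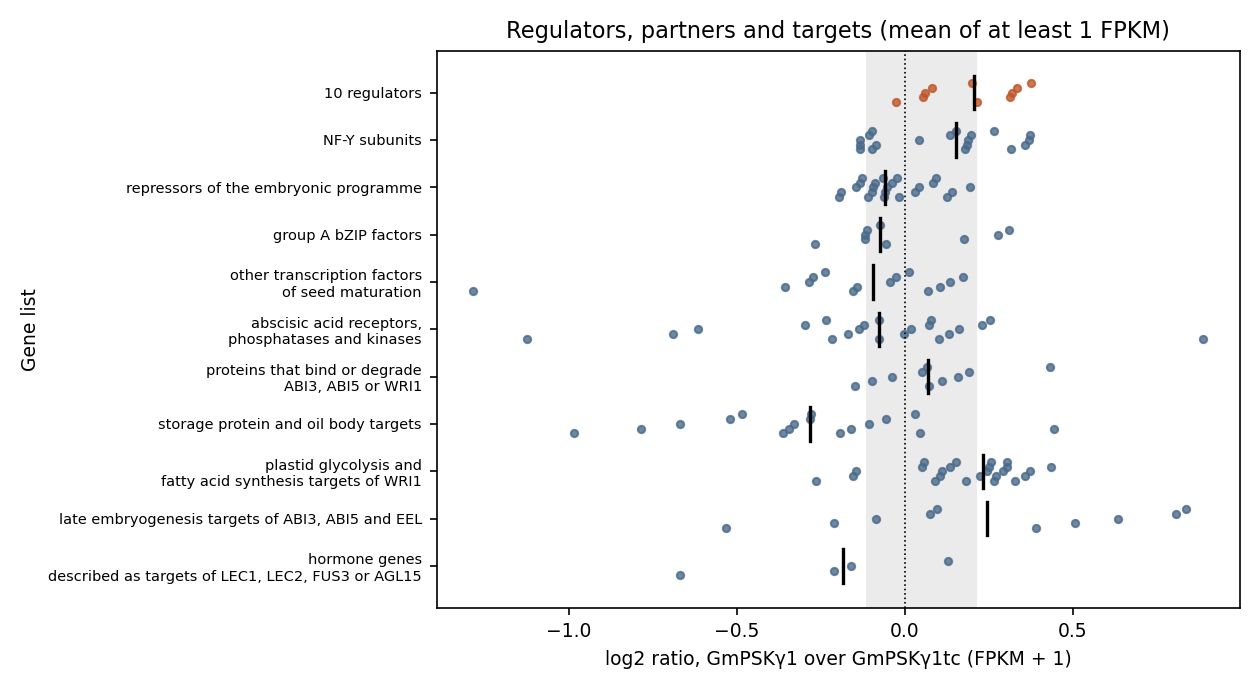
log2 ratio of GmPSKγ1 over control (FPKM + 1) for the 10 regulators and for each gene of 10 related lists with a mean of at least 1 FPKM; black bars are medians and the grey band runs from the lower to the upper quartile over all models. Medians lie at 0.21 for the regulators, 0.23 for the WRI1 targets and -0.28 for the storage protein and oil body genes.

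Among the other NF-Y subunits, the potential complex partners of LEC1 and L1L, 19 of 27 were measured, 12 higher and 7 lower in GmPSKγ1, with a median of 0.15, or 0.04 over all 27. NF-YC2 was the most abundant, at 229 FPKM in GmPSKγ1 and 245 in the control, a ratio of 0.934 (interval 0.895 to 0.975). The A subunits were higher in 7 of 9 cases. NF-YA8 had 3.86 and 2.75 FPKM, NF-YA2 had 5.71 and 4.24 FPKM, and NF-YA5, whose model overlaps another, had 17.03 and 12.96 FPKM. The 5 measured B subunits other than LEC1 and L1L split 2 higher and 3 lower, and their highest, NF-YB3, had 22.3 and 24.0 FPKM.

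Genes of the chromatin and B3 repressors that silence the embryonic programme after germination were nearly level between the libraries. All 23 were measured, with 7 higher and a median of -0.06, and 16 were lower, as were 42.1% of all models. None was 1.5-fold apart, as were 5.81% of all models. Of the 20 with a model that overlaps no other, the counting interval lay below 1 for 4 and above 1 for 0. Of all such models, 15.8% lay below 1 and 24.9% above. The most abundant, the histone deacetylase gene HDA19, had 48.9 FPKM in GmPSKγ1 and 51.1 in the control (ratio 0.957, interval 0.892 to 1.03). VAL1, a B3 repressor of the LEC1, FUS3 and ABI3 network, had 47.9 and 49.9 FPKM. Values furthest from 0 were those of ASIL2 (27.3 and 31.4 FPKM), a repressor of maturation genes, SNL2 (17.1 and 19.6 FPKM), a co-repressor, and the chromatin remodeller gene PKR2 (1.62 and 1.29 FPKM).

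The group A bZIP relatives of ABI5 and EEL had 9 of 11 members measured, 3 higher and 6 lower, with a median of -0.08. bZIP67, which acts with nuclear factor Y subunits on seed genes, was the most abundant of the group including ABI5 and EEL, at 133 FPKM in GmPSKγ1 and 117 in the control (ratio 1.13, interval 1.08 to 1.19). EEL came second in both libraries and ABI5 seventh. The largest log2 ratios were those of ABF1 (5.67 and 4.38 FPKM, with a model that overlaps another), ABF2 (4.30 and 3.38 FPKM) and ABF3 (2.78 and 3.55 FPKM); the counting intervals of ABF2 and ABF3 included 1.

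Among other transcription factors of maturation, 14 of 16 were measured, 5 higher and 9 lower, with a median of -0.09. MYB96, an abscisic acid responsive MYB gene known for wax and seed functions, had 1.73 FPKM in GmPSKγ1 and 5.67 in the control. Its ratio was 0.306 (interval 0.219 to 0.424), and 0.819% of all models were likewise at least 2-fold lower in GmPSKγ1. CHO1, an AP2 gene that acts with ABI4, was the most abundant, at 89.5 and 106 FPKM (ratio 0.847, interval 0.809 to 0.886). TT2, the MYB gene of seed coat tannins, had 7.09 and 8.87 FPKM, and its interval included 1. bZIP53, a partner of ABI3, was listed at 0 in both libraries. Its model has the same start and end as that of AT3G62422 and shares all 1265 bases with it. AT3G62422 had 65.0 and 61.9 FPKM, so a value for bZIP53 itself cannot be told apart. The listed 0 therefore does not show that bZIP53 was absent.

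Genes of abscisic acid perception, which acts upstream of ABI3 and ABI5, differed widely in both directions. Of 26 genes 21 were measured, 9 higher and 12 lower, with a median of -0.08 (-0.0016 with a minimum mean of 5 FPKM); 1 was at least 1.5-fold higher and 3 at least 1.5-fold lower, against 3.13% and 2.68% of all models. AHG1, a phosphatase gene of the seed abscisic acid pathway, had 3.64 FPKM in GmPSKγ1 and 9.11 in the control, a ratio of 0.399 (interval 0.308 to 0.508). The receptor genes differed in opposite directions. PYL1 had 4.25 and 1.83 FPKM, a ratio of 2.32 on about 96 and 39 reads (interval 1.57 to 3.43), while PYL2 had 8.09 and 13.7 FPKM, a ratio of 0.592 (interval 0.484 to 0.718). SNRK2.6, the gene of a kinase activated by abscisic acid, had 12.7 and 19.99 FPKM, a ratio of 0.635 (interval 0.557 to 0.723). The most abundant gene, the phosphatase gene HAI1, had 212 and 193 FPKM. PYL10, PYL11, PYL12 and PYL13 were listed at 0 in both libraries.

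Proteins that bind or degrade ABI3, ABI5 or WRI1 were encoded by 10 measured genes, 7 higher and 3 lower, with a median of 0.07 that turned to -0.0047 when the libraries were rescaled without the 50 most abundant genes. AFP2 and AFP1, whose products bind ABI5, had 36.7 and 32.0 FPKM and 5.50 and 3.82 FPKM; both models overlap another. DWA1, of a ubiquitin ligase that targets ABI5, had 20.6 and 18.3 FPKM, with a ratio interval that included 1 (0.987 to 1.28).

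The targets of the regulators did not all differ in 1 direction. Storage protein and oil body genes had a median log2 ratio of -0.28: 14 of the 17 genes were lower in GmPSKγ1, as were 42.1% of all models. Of the 17, 3 were at least 1.5-fold lower, as were 2.68% of all models. CRU4, a cruciferin-type globulin gene with an RY core in its window, had 369 FPKM in GmPSKγ1 and 731 in the control, and CRB, without one, had 6116 and 9733 FPKM. Of the albumin genes shown above, SESA4 had 11073 and 19092 FPKM and SESA3 had 27054 and 34812 FPKM. The cruciferin gene CRA1, with 2 RY cores in the stretch below, stood on the other side, at 8831 and 6493 FPKM and a ratio of 1.36 (interval 1.35 to 1.37).
CRA1 (chr5:17758475-17758520, minus strand): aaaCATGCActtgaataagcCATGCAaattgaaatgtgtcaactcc
Plastid glycolysis and fatty acid synthesis genes had a median of 0.23, and 21 of the 24 were higher. KAS1, of acyl chain elongation, had 222 and 164 FPKM (ratio 1.36, interval 1.31 to 1.41), MCAT had 106 and 81.9 FPKM, and MOD1, of enoyl-ACP reduction, had 321 and 250 FPKM. ACP1, an acyl carrier protein gene whose model overlaps another, was the most abundant at 1266 and 1063 FPKM. None of these 24 genes was 1.5-fold apart, as were 5.81% of all models, and WRI1 itself had a log2 ratio of 0.20.

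Late embryogenesis genes were divided between genes with clear levels and genes at or near 0. Of 15, 10 were measured, 7 higher and 3 lower in GmPSKγ1, with a median of 0.24, and 3 were at least 1.5-fold higher, as were 3.13% of all models. The median was 0.0 over all 15, since 4 were listed at 0 in both libraries. AT3G17520 had 88.1 FPKM in GmPSKγ1 and 48.9 in the control (ratio 1.80, interval 1.67 to 1.95), LEA4-5 had 40.4 and 22.7 FPKM (ratio 1.78, interval 1.55 to 2.05), and the dehydrin gene RAB18 had 7.25 and 4.30 FPKM (ratio 1.68, interval 1.26 to 2.3). PER1, a peroxiredoxin gene and the most abundant, had 657 and 698 FPKM. EM1, the target for which EEL and ABI5 are known to compete, had 0.0679 and 0.363 FPKM, on about 1 and 5 reads. EM6, a late target of ABI3 and ABI5, was listed at 0 in both libraries, where 3 reads would have given 0.254 and 0.272 FPKM. M17, AT3G22490 and ECP31 were also listed at 0 in both.

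Of 8 hormone genes described as targets of LEC1, LEC2, FUS3 or AGL15, 4 were measured, 1 higher and 3 lower. YUC10, an auxin synthesis gene expressed in seeds, had 15.4 FPKM in GmPSKγ1 and 25.1 in the control, a ratio of 0.614 (interval 0.530 to 0.708). IAA30, an auxin response gene with an RY core in its window, had 7.51 and 8.85 FPKM, and YUC4 had 7.50 and 8.50 FPKM, both with intervals that included 1. TAA1, of auxin synthesis, had 15.3 and 13.9 FPKM. The gibberellin synthesis genes GA3OX1 and GA3OX2 were below 0.5 FPKM in both libraries, and GA2OX6 was listed at 0 in both.

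Markers of seed compartments went both ways, and the ratio of MUM2, a mucilage gene, at 1.58 was larger than that of any regulator. BAN and MUM2, of the seed coat, had 117 and 51.4 FPKM in GmPSKγ1 and 91.1 and 32.6 FPKM in the control, while STK had 17.1 and 21.5 FPKM and TT10 had 597 and 682 FPKM. In the embryo list WOX8 had 4.06 and 2.78 FPKM, CUC1 had 7.58 and 9.72 FPKM and PDF1, an epidermal gene, had 542 and 607 FPKM. In the endosperm list EPR1 had 3640 and 4261 FPKM, ZOU had 9.74 and 11.4 FPKM and ALE1 had 16.2 and 13.8 FPKM. Of measured markers, 1 of 5 embryo, 1 of 4 endosperm and 4 of 8 seed coat genes were higher in GmPSKγ1, beside 57.9% of all models. Their part in the values of the regulators was not tested.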

How the data were processed

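The authors deposited FPKM per gene model for each of 2 libraries; Bowtie 0.12.2 and genome build TAIR10 were used, per the submitters' processing notes. For the FPKM program, annotation release, strand handling and reads with several matches, details were not given in the sources used here. Regulators and gene lists were chosen with earlier results of these data known. Ratios used a pseudocount of 1 FPKM and a mean of at least 1 FPKM (17816 models). Reads per gene were estimated from the smallest FPKM steps (99.6% of low values in single-exon models were whole within 0.05 in both libraries) and the exon length of the longest RefSeq transcript. They are approximate except for LEC2, the 1 regulator whose ends match TAIR10.1. Where RefSeq exons reach past the deposited model, reads are overestimated and the interval is too narrow. Ratio intervals are exact (Clopper-Pearson, SciPy 1.17.1) for given counts. Their check on simulated data used known counts, so errors from estimated reads were not covered. Rescaled intervals were added after the data were seen. From each list the 3 largest absolute log2 ratios and the most abundant gene were named; others named (SNRK2.6, VAL1, NF-YB3, WRI3, bZIP53, CRA1, TAA1 and genes near 0) were chosen after their values were seen. No likeness of pattern was computed from 2 libraries. Upstream sequences are from RefSeq on TAIR10.1.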

Additional observations from a re-analysis of the deposited data

How the results depend on the processing

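The median log2 ratio of the 10 regulators stayed between 0.13 and 0.23 under pseudocounts of 0.1 and 5 FPKM, 3 rescalings, no minimum and a minimum mean of 5 FPKM. None was 1.5-fold or 2-fold apart, 0 of 10 under each setting but the minimum of 5, which leaves out LEC2 (0 of 9). FUS3 reversed when the libraries were rescaled without the 50 most abundant genes, to a log2 ratio of -0.0015. Under that rescaling the medians moved to -0.14 for the repressors, -0.16 for the group A bZIP factors and -0.28 for the endosperm markers; by the median ratio they moved to -0.11, -0.13 and -0.26. The endosperm median was -0.23 with a pseudocount of 0.1. With no minimum, the late embryogenesis median was 0.0, that of the other NF-Y subunits 0.04 and that of the abscisic acid genes -0.0008. The causes were not tested. The intervals of the 9 regulators stayed on the same side of 1 when reads were estimated from merged exons. Rescaling moved 3 of them: by the median ratio the lower bounds of FUS3 and LEC2 were 0.984 and 0.974, and without the 50 most abundant genes 0.964 and 0.955, while the upper bound of ABI3 was 0.984 and 0.964. For LEC1 the lower bound was 1.02 by the median ratio and 1.004 without the 50 most abundant genes, just above 1. Intervals of other named genes were not rescaled. No paired analysis was possible because each genotype has 1 library. Depth limits LEC2 and ABI5, with fewer than 200 reads in each library.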

Other observations

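The regulators were also placed within their gene families, taken from RefSeq product names after the values were seen. FUS3 was the most abundant of 39 genes annotated as AP2/B3-like, with ABI3 at place 3 and LEC2 at place 13 by mean FPKM. AGL15 led 118 genes annotated as AGAMOUS-like or MADS-box, of which 31 had a mean of at least 1 FPKM; SHP2 came second. WRI1 led 84 genes annotated as integrase-type DNA-binding, a name RefSeq gives to some AP2/ERF proteins, at 108 FPKM in GmPSKγ1 and 93.7 in the control. The next gene so annotated, AT1G22190, had 44.2 and 53.0 FPKM, and ABI4 was at place 9. CHO1, an AP2 gene without that annotation, had 89.5 and 106 FPKM, above WRI1 in the control. Among 63 genes annotated as bZIP, bZIP67 was first, EEL second and ABI5 at place 31.

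Median log2 ratios of these families were 0.11 for AP2/B3-like, 0.01 for bZIP, 0.04 for AGAMOUS-like and MADS-box and -0.06 for integrase-type genes, over the members with at least 1 FPKM on average. Beside 57.9% of all models, 18 of 25 AP2/B3-like, 22 of 43 bZIP, 17 of 31 AGAMOUS-like and MADS-box and 18 of 43 integrase-type genes were higher in GmPSKγ1. Of genes annotated as nuclear factor Y, 15 of 27 were higher, with a median log2 ratio of 0.13.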
